A study of Mus musculus with 24 samples.

Results

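Gene signals in the left lung lobe of C3H/HeJ (HeJ) mice after 48 h of ozone were compared with those after 24 h of ozone. The comparison rests on 6 of the 24 arrays of the series, chosen by their titles: 3 HeJ mice at 48 h and 3 HeJ mice at 24 h, each an individual male. HeJ mice carry a dominant negative Tlr4, the receptor for bacterial lipopolysaccharide, and so do all the HeJ groups at every time. The related strain C3H/HeOuJ (OuJ), with sufficient Tlr4, gave 3 mice at 48 h and 3 at 24 h, and both strains also had 3 mice in air and 3 at 6 h. The labels give neither the age of the mice nor the ozone concentration. RNA came from the whole lobe with all its cell types, so fewer cells of a type and less RNA per cell cannot be told apart in any of these values. The arrays hold 22690 probe sets, from which 8008 genes were tested. A level is the authors' linear signal, and a difference is the 48 h mean minus the 24 h mean of log2(signal + 16).

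Ozone is an oxidant gas that injures the ciliated cells and alveolar type 1 cells of the airway and alveolar lining. In the days after the injury, surviving epithelial cells divide, secretory cells make acute phase and defence proteins, and the endoplasmic reticulum (ER), where secreted proteins fold, raises its chaperones through the unfolded protein response. Glucocorticoids, the adrenal stress hormones, act through a nuclear receptor and induce a well described set of genes that are often used as a readout of the hormone.

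The promoters of ER chaperone genes that rose are shown because they hold the ER stress element, a sequence bound by the transcription factors NF-Y and ATF6. The element was searched as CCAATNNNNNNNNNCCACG on both strands of the RefSeq promoters (build GRCm38.p6), each 300 bases long, with 250 bases before and 50 after the gene start. The table lists 32851 promoters, of which 39 held it, or 0.119%. Of the 23 genes in the list for the unfolded protein response and ER folding, 21 had a promoter in the table and 8 held the element. These are 5 of the 5 matched promoters among members that rose at 48 h and 3 of the 16 among members that did not pass (Canx, Dnajc3 and Syvn1). Manf and Hyou1, which also rose, had no promoter in the table and could not be searched. The 5 promoters are printed on the strand of the gene, 5′ to 3′, with the element in capitals. They are Hspa5 (chr2:34771840-34772139, plus strand), Hsp90b1 (chr10:86705395-86705694, minus strand), Calr (chr8:84846882-84847181, minus strand), Pdia6 (chr12:17266339-17266638, plus strand) and Creld2 (chr15:88819396-88819695, plus strand).
Hspa5: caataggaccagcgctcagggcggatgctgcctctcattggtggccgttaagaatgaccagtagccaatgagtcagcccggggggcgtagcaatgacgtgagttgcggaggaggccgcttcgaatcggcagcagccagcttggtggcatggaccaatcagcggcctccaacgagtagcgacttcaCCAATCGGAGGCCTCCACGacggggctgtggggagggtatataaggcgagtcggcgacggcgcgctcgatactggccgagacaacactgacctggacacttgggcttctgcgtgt
Hsp90b1: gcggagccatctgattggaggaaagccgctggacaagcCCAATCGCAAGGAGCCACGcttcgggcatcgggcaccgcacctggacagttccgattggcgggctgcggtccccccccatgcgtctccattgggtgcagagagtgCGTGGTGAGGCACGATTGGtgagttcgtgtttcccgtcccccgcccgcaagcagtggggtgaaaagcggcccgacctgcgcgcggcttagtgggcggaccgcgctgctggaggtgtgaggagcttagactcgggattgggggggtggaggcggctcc
Calr: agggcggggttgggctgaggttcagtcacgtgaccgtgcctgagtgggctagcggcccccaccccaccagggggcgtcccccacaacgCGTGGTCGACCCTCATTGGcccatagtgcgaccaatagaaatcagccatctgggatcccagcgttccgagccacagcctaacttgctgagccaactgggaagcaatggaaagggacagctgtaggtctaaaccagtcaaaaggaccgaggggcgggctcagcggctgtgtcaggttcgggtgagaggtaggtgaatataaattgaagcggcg
Pdia6: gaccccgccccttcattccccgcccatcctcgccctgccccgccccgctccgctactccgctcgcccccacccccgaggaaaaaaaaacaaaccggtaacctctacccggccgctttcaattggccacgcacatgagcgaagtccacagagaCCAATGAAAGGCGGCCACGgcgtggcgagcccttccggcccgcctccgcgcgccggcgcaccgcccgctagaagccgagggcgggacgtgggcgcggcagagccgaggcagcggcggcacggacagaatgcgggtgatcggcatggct
Creld2: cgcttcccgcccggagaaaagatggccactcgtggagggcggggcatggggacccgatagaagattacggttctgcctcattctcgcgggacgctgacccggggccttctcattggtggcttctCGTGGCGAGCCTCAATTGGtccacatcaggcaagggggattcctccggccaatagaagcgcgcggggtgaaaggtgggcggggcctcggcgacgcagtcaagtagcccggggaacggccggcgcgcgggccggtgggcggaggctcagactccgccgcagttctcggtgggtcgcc
The first base of the match lay 65 bases before the gene start in Hspa5, 98 in Pdia6, 126 in Creld2 and 162 in Calr, and Hsp90b1 had a pair of matches, at 212 and 107 bases. The match in Calr, the match in Creld2 and the nearer match in Hsp90b1 run on the opposite strand. A match shows that these letters stand in the window and says nothing of binding in these lungs.

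The 6 arrays were alike in overall signal, with medians between 200.05 and 224.9, and 1 of them stood apart from its group. On the first principal component, which held 41.7% of the variance, the 48 h arrays scored 10.1, 14 and 14.2, while the 24 h arrays scored -17.7, -1.6 and -19. The array in the middle, HeJ 24 h replicate 2, correlated with the 48 h arrays at a mean r of 0.970 and with the other 24 h arrays at 0.967, taken across genes. It was the 24 h array nearest to 48 h for 313 of the 437 genes that passed. Codes in the labels add a suffix to the other two 24 h arrays, replicates 1 and 3, and both groups belong to code series 13. The 5′ to 3′ signal ratio of Gapdh, a sign of RNA quality, was 0.670, 0.611 and 0.497 at 48 h, against 0.944, 0.605 and 0.710 at 24 h. The log2 ratio differed by -0.33 between the groups (exact two-sided permutation p = 0.3, where 0.1 is the smallest that 3 against 3 allow). The actin ratio averaged 0.661 ± 0.0486 at 48 h and 0.765 ± 0.0779 at 24 h (SD, n = 3 each, exact two-sided permutation p = 0.2, adjusted over both ratios 0.3).

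**Figure D1:**
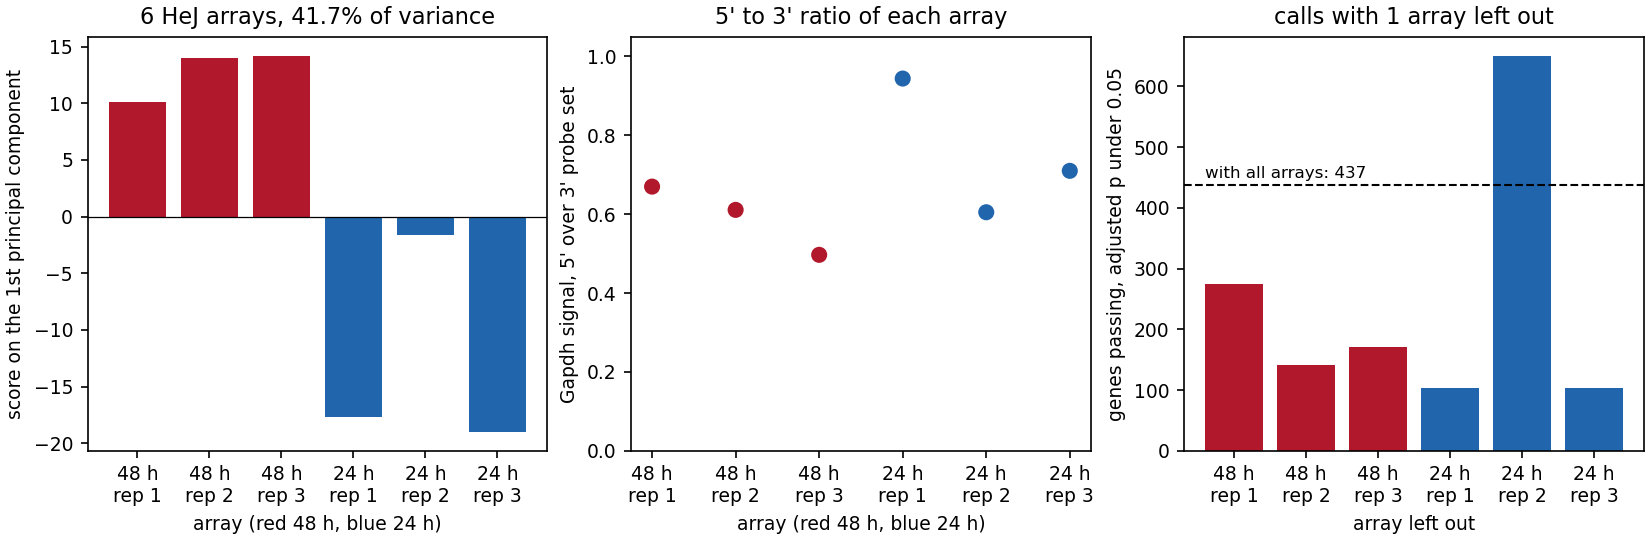
The 6 HeJ arrays, 48 h in red and 24 h in blue. Left, score of each array on the first principal component; middle, Gapdh signal of the 5′ probe set over that of the 3′ probe set; right, genes passing at an adjusted p under 0.05 when the named array is left out, with the dashed line at the 437 genes of all arrays. HeJ 24 h replicate 2 lies between the groups at -1.6, and leaving it out gave 649 genes, while leaving out either other 24 h array gave 103 or 104.

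Between 48 and 24 h, 437 of 8008 genes passed the test (limma, Benjamini-Hochberg adjusted p under 0.05), which is 5.46% of the genes tested. Of these, 210 were higher at 48 h (2.62%) and 227 lower (2.83%). The median difference was 0.55 among the higher genes and -0.60 among the lower genes, and 44 genes changed at least 2-fold, 16 upward and 28 downward. The 3 arrays of one group lay wholly beyond those of the other for 430 of the 437, a separation that 23.9% of all genes tested showed. Leaving out 1 HeJ array at a time gave 103 genes without 24 h replicate 1, 649 without 24 h replicate 2, 104 without 24 h replicate 3, and 274, 141 and 171 without 48 h replicates 1, 2 and 3. With the Gapdh ratio of each array as a covariate 86 genes passed, 28 higher and 58 lower, and with the actin ratio 49 passed. Without the 24 h arrays whose codes carry a suffix, replicates 1 and 3, only replicate 2 remains at 24 h and 1 gene passed. Median centring of the arrays gave 216 higher and 147 lower genes. In all, 64 genes, 25 higher and 39 lower, passed with each HeJ array left out in turn, and 58 of them passed with the Gapdh covariate too. How far the 5′ to 3′ ratio or the single 24 h array contributes to the differences was not tested beyond these values.

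Of 23 measured genes of the unfolded protein response and ER folding list 7 rose at 48 h and 0 fell, where 2.62% of all genes rose, with a median difference of 0.39 over the whole list, against -0.0029 over all genes tested. The 7 were Hspa5 (BiP, the main ER chaperone of the Hsp70 family), Hsp90b1 (its Hsp90 counterpart), Calr (calreticulin, which binds newly made glycoproteins), Pdia6 (a disulfide isomerase), Hyou1 (a large co-chaperone), Manf (a secreted factor that leaves the ER under stress) and Creld2 (an ER protein with disulfide isomerase activity). The list's count was 5 to 8 with 1 HeJ array left out, 8 without 24 h replicate 2, 4 with the Gapdh covariate and 2 with the actin covariate.

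Manf had signals of 2888.5, 2416.2 and 2682.4 at 48 h, against 1470, 1444.7 and 997.9 at 24 h, a 2.05-fold rise (log2 difference 1.04 ± 0.18 SE, adjusted p = 0.00353). Pdia6 had 1862.5, 1832.3 and 1804.4 at 48 h, against 1109, 1169.9 and 906.2 at 24 h, 1.73-fold higher (adjusted p = 0.00206). The groups did not overlap for either gene, which for Manf was a condition of its place among the 14 largest rises. The 48 h arrays of Pdia6 lay within a narrow band well above all of its 24 h arrays. Hspa5 had 11648.9, 9376.3 and 11435 at 48 h, against 7268.6, 7254.5 and 5781.6 at 24 h, 1.60-fold higher (adjusted p = 0.00486). Creld2 had 820.5, 1086.7 and 1154.3 at 48 h, against 581.9, 555.7 and 443 at 24 h (log2 difference 0.93 ± 0.18, adjusted p = 0.00519). Both were again separate by time, with the lowest 48 h array above the highest 24 h array. Hsp90b1 (0.77, adjusted p = 0.00801), Calr (0.70, adjusted p = 0.00460) and Hyou1 (0.55, adjusted p = 0.0274) rose by less. For Calr the 24 h value nearest to 48 h was that of replicate 2, 6690 against 4715.8 and 4907.4 in the other 24 h arrays, while the 48 h arrays read 8897.5, 7896.3 and 9490.6. Of the members with the element that did not pass, Syvn1, an ER ubiquitin ligase, differed by 0.44 (adjusted p = 0.0534), Canx, the calnexin chaperone, by 0.32 (adjusted p = 0.0839) and Dnajc3, a co-chaperone, by -0.01.

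Some genes of DNA replication rose, and few of those of mitosis passed. Of 15 measured replication and nucleotide synthesis genes 4 rose and 0 fell, where 2.62% of all genes rose, with a list median of 0.34. They were Rrm2, the small subunit of ribonucleotide reductase, and Mcm2, Mcm3 and Mcm5 of the replicative helicase. Rrm2 had signals of 515.9, 626.7 and 664.2 at 48 h, against 196.1, 321 and 266.7 at 24 h (log2 difference 1.17 ± 0.18, adjusted p = 0.00125). Mcm2 had 317.1, 447.3 and 373.9 at 48 h, against 115.5, 195.7 and 137.2 at 24 h (1.27 ± 0.30, adjusted p = 0.0182). The groups were separate for both, as a place among the 14 largest rises required, and all 24 h signals of Mcm2 lay below the filter's level of 218.3. Pclaf, a partner of the replication clamp PCNA that stands outside the list, had 699.7, 730 and 672.6 at 48 h, against 284.5, 421.8 and 230.6 at 24 h (1.17 ± 0.20, adjusted p = 0.00334). Mcm5 (0.76) and Mcm3 (0.56) passed with adjusted p = 0.0422 and 0.0414. The filter on the mean signal did not keep Mcm5, and the replication count was then 3. The replication count was 1 without 24 h replicate 1, 5 without replicate 2 and 1 without replicate 3, 2, 1 and 1 without the 48 h replicates in turn, and 1 with either the Gapdh or the actin covariate. Rrm2 and Pclaf each passed in 20 of the 21 alternatives tried.

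All 14 measured mitosis and spindle genes had a positive difference, with a median of 0.62. Of them 2 passed, where 2.62% of all genes rose. The array held 29 members of the list, and the filter could keep a faint one through arrays in which it was brighter. How far this shaped the shared sign and the median was not tested. Ube2c, which loads ubiquitin for the anaphase-promoting complex, had 325.2, 352.3 and 300.9 at 48 h, against 168.1, 199.2 and 195.8 at 24 h (0.75 ± 0.20, adjusted p = 0.0272). Prc1, a midzone spindle protein, had 310.9, 332.5 and 333.6 at 48 h, against 168.2, 219.3 and 192.5 at 24 h (0.71 ± 0.18, adjusted p = 0.0216). Both were separate by time. Mki67, the proliferation antigen Ki-67, had 352.5, 468.6 and 470.8 at 48 h, against 148.5, 243.8 and 308 at 24 h, which did not pass (0.88 ± 0.27, adjusted p = 0.0589). Ckap2, a spindle protein outside the list, rose by 1.36 (adjusted p = 0.0399), with a 24 h replicate 1 of 42.1 far below the others at 163.8 and 160.2. The filter on the mean signal did not keep Ckap2. The mitosis count was 3 without 24 h replicate 2, 1 without 48 h replicate 1 and 0 without any other single HeJ array. It was also 0 with the filter on the mean signal and with the Gapdh or the actin covariate. Every 24 h signal of Ube2c lay below the filter's level of 218.3, as did those of Prc1 in all but replicate 2, so both genes were kept through groups in which they are higher.

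Of 11 measured acute phase and secreted defence genes 4 rose and 0 fell, where 2.62% of all genes rose, and the list median was 0.52. Saa3, the serum amyloid A that lung epithelium and macrophages make in mice, had signals of 2608.8, 3152.8 and 2433.5 at 48 h, against 853.4, 1135.5 and 612.1 at 24 h, a 3.19-fold rise (log2 difference 1.67 ± 0.30, adjusted p = 0.00353). The lowest 48 h array lay far above the highest 24 h array. Cfb, complement factor B of the alternative pathway, had 669.8, 961.6 and 507.6 at 48 h, against 300.1, 402.9 and 345.5 at 24 h (0.96 ± 0.27, adjusted p = 0.0383). Itih4, an inter-alpha-trypsin inhibitor heavy chain, rose by 0.55 (adjusted p = 0.02). Cp, the copper ferroxidase ceruloplasmin, rose by 0.52 on its brightest probe set (adjusted p = 0.0123), while its 7 probe sets ran from -0.52 to 0.52, so its direction depends on the probe set. The group's count was 1 without 24 h replicate 1, 4 without replicate 2 and 1 without replicate 3, 2, 2 and 3 without the 48 h replicates in turn, 1 with the Gapdh covariate and 0 with the actin covariate. Saa3 passed in 19 of 21 alternatives.

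Of 16 measured chemokines and cytokines 3 rose and 0 fell, where 2.62% of all genes rose, with a median of 0.23. Cxcl12, the ligand of the receptor Cxcr4, had 5807.7, 4978.8 and 4595.9 at 48 h, against 1892.2, 4212.4 and 1947.6 at 24 h (1.03 ± 0.23, adjusted p = 0.0116). Il33, an alarmin kept in the nucleus of epithelial cells, had 1857.7, 2099.4 and 1666 at 48 h, against 858.9, 1569.3 and 704.9 at 24 h (0.91 ± 0.19, adjusted p = 0.00954). For both genes 24 h replicate 2 lay close to the 48 h arrays and the other 24 h arrays far below. Cxcl12 in air read 4380.6, 4588.5 and 4457.2, nearer to the 48 h arrays and to 24 h replicate 2. Ccl6, a macrophage chemokine, rose by 0.79 (adjusted p = 0.0284). The count was 0 without 24 h replicate 1 or 3, 3 without replicate 2, 2, 1 and 3 without the 48 h replicates in turn, and 0 with either covariate. Marco, a scavenger receptor of alveolar macrophages, had 660.5, 1256.8 and 534.4 at 48 h, against 360.4, 609.8 and 226.8 at 24 h, with overlap and no call (1.02 ± 0.42, adjusted p = 0.170). The metalloproteinase inhibitor Timp1 also overlapped (0.53, adjusted p = 0.127).

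Cytosolic heat shock proteins differed by a list median of 0.44 over 24 measured genes, and 2 rose, where 2.62% of all genes did. Hsp90aa1, the inducible cytosolic Hsp90, had 7958.6, 7022.8 and 6760.1 at 48 h, against 3983.3, 5659.7 and 5037.2 at 24 h (0.58 ± 0.16, adjusted p = 0.0404). Fkbp4, its co-chaperone on steroid receptors, had 754.7, 685.1 and 758.8 at 48 h, against 240.7, 535.2 and 463.8 at 24 h (0.87 ± 0.25, adjusted p = 0.0440). The inducible Hsp70 genes spread widely. Hspa1b had 3302, 1972 and 3667.3 at 48 h, against 686.8, 2796 and 944.4 at 24 h, so that 24 h replicate 2 overlapped the 48 h arrays (1.23 ± 0.62, adjusted p = 0.265). Hspa1a (1.16 ± 0.63, adjusted p = 0.301), a near-identical copy whose probes may share signal with Hspa1b, and Hsph1, an Hsp110 co-chaperone (0.96 ± 0.39, adjusted p = 0.162), did not pass. The count was 4 without 24 h replicate 2, and 0 without any other single HeJ array or with either covariate.

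All 15 measured genes of cholesterol synthesis and uptake had a positive difference, with a median of 0.28. Of them 4 rose, where 2.62% of all genes did. Idi1, the isopentenyl diphosphate isomerase, had 1240.6, 1067.6 and 1150.3 at 48 h, against 508.1, 816.6 and 605.8 at 24 h (0.85 ± 0.19, adjusted p = 0.0135). Fdft1, squalene synthase, had 685.4, 643.4 and 664.2 at 48 h, against 436.5, 479.7 and 457.4 at 24 h (0.52 ± 0.12, adjusted p = 0.0187). In both the groups were separate, and Fdft1 varied little within either. Cyp51 (0.79, adjusted p = 0.0250) and Msmo1 (0.72, adjusted p = 0.0446), which demethylate the sterol ring, rose too. The count was 0 without 24 h replicate 1 or 3, 4 without replicate 2, 1 without any single 48 h array and 0 with either covariate. Cyp7b1, the oxysterol hydroxylase, rose by 1.10 ± 0.23 (adjusted p = 0.00722), with 318, 353.6 and 329.3 at 48 h, against 134.4, 187 and 124.4 at 24 h. Every 24 h signal of Cyp7b1 lay below the filter's level of 218.3. The filter on the mean signal kept neither Cyp7b1 nor Cyp51, and the list's count was then 3.

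Of 14 measured epithelial repair and injury genes 2 rose and 0 fell, where 2.62% of all genes rose, with a median of 0.18. Krt8, a keratin of simple epithelia that marks cells in transition between alveolar types after injury in mice, had 6915.9, 6762.7 and 8583.7 at 48 h, against 4204, 4418.6 and 4494.3 at 24 h (0.75 ± 0.11, adjusted p = 0.00117). Lgals3, galectin-3, had 7099.6, 7646.2 and 7239.3 at 48 h, against 4684.7, 5463.6 and 5395.2 at 24 h (0.50 ± 0.09, adjusted p = 0.00353). For both genes the 24 h arrays lay close together and below every 48 h array, 24 h replicate 2 included. The count was 2 with any single HeJ array left out, 2 with the Gapdh covariate and 1 with the actin covariate, and Krt8 passed in 20 of 21 alternatives. Among markers of the other epithelial cells, Aqp5, the type 1 cell water channel, rose by 0.62 (adjusted p = 0.0132). The type 1 list of 17 had 1 rise, 1 fall, 8 positive and 9 negative differences, and a median of -0.02. Ager, a defining marker of the lobe, averaged 13820 at 48 h, against 15300 at 24 h. The type 2 cell mucin Muc1 rose by 0.47 (adjusted p = 0.0218). It was the 1 call in a type 2 list of 24, with 14 positive and 10 negative differences and a median of 0.07. The club cell list of 21 measured genes was split. In it 2 rose, Cldn10 (0.49) and Cyp2s1 (0.45), where 2.62% of all genes did. Another 2 fell, where 2.83% of all genes did, among them Cyp2b10 (-0.74), which the type 1 list also holds. The brightest defining markers of the lobe did not pass. Sftpc, surfactant protein C of type 2 cells, read 30364.7 to 35989.7 at 48 h, against 36681 to 39431.1 at 24 h (-0.21, adjusted p = 0.287), and Scgb1a1, the club cell secretoglobin, 28779.9 to 30289 at 48 h, against 31464.7 to 33243.4 at 24 h (-0.14, adjusted p = 0.466).

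**Figure D2:**
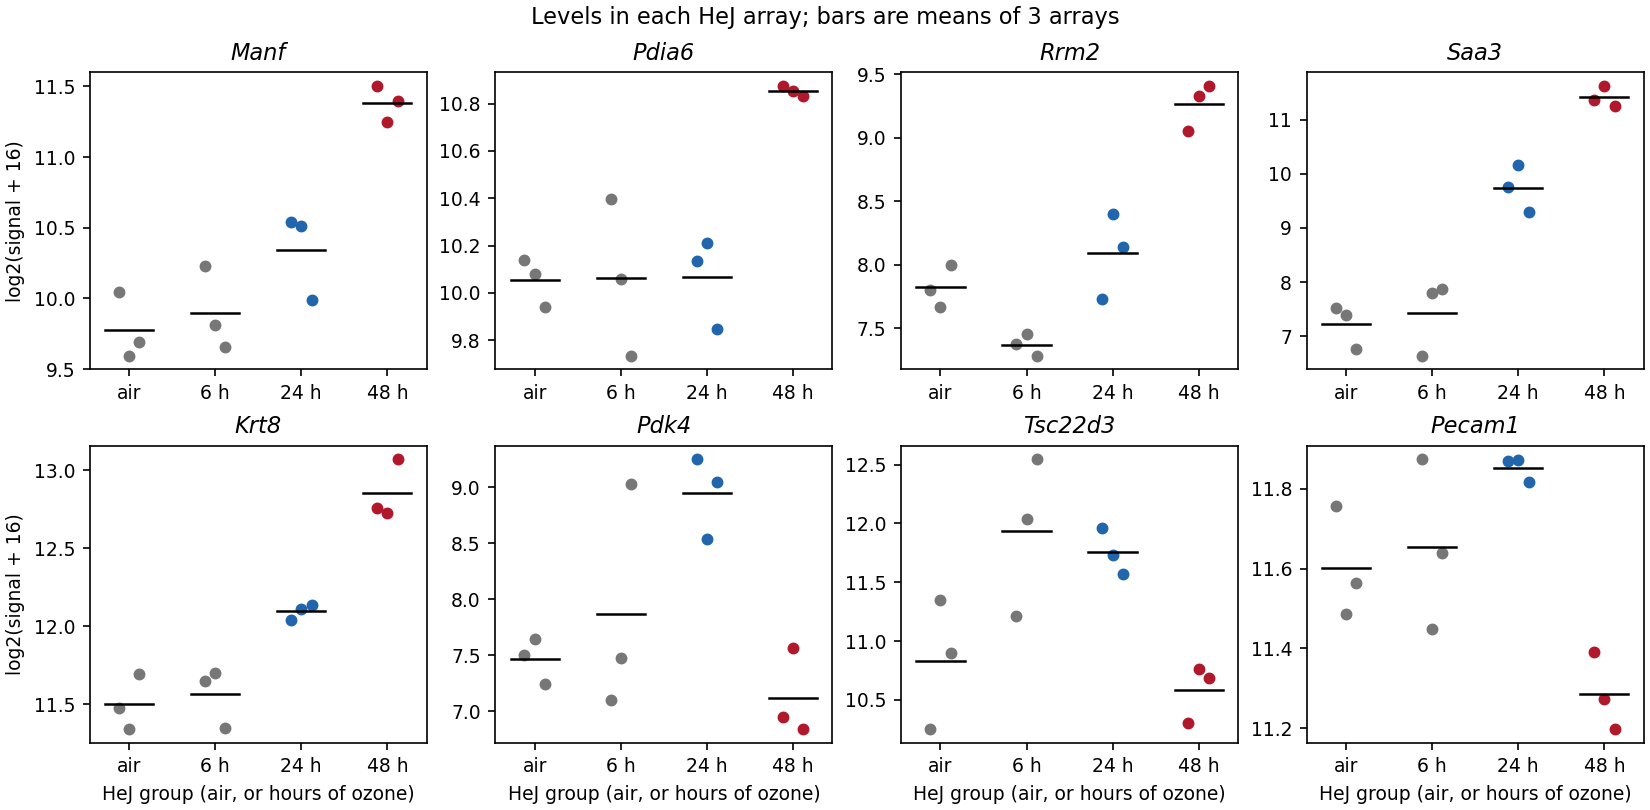
Level of 8 genes in each HeJ array, as log2(signal + 16), by group: air and 6 h in grey, 24 h in blue, 48 h in red; each point is 1 mouse and bars are means of 3. Manf, Pdia6, Rrm2, Saa3 and Krt8 are highest in the 3 arrays at 48 h, while Pdk4, Tsc22d3 and Pecam1 at 48 h lie below all 3 arrays at 24 h; air and 6 h arrays belong to another code series.

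The 40 lists were chosen with earlier results of these data known, so their ranks are not independent of the values. Among them the glucocorticoid-responsive genes had the lowest median difference. Of 21 measured genes 9 fell and 0 rose, where 2.83% of all genes fell, 19 had a negative difference, and the list median was -0.65. Those that fell were Tsc22d3, Zbtb16, Per1, Klf9, Pdk4, Angptl4, Sult1a1, Map3k6 and Lyve1, of which Klf9 is named to complete the count. Tsc22d3 (GILZ), a direct target that curbs inflammatory signalling, had 1248.7, 1717.7 and 1631.4 at 48 h, against 3967.3, 3389 and 3026.5 at 24 h (-1.17 ± 0.28, adjusted p = 0.0181). Zbtb16 (PLZF), a transcription factor strongly induced by the hormone, had 145.7, 181.8 and 160.3 at 48 h, against 685.2, 412.9 and 857.3 at 24 h (-1.85 ± 0.47, adjusted p = 0.0234). Pdk4, the kinase that shuts off pyruvate dehydrogenase, had 107.8, 173 and 98.5 at 48 h, against 593, 356.8 and 512.4 at 24 h (-1.83 ± 0.35, adjusted p = 0.00386). No 48 h array of these genes reached any 24 h array, which for Zbtb16 and Pdk4 a place among the 14 largest falls required. In Zbtb16 and Pdk4 24 h replicate 2 was the lowest of its group. Per1, a clock gene that the receptor also drives, fell by 0.62 (adjusted p = 0.0467), and 7 of 21 alternatives kept that call.

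Sult1a1, a phenol sulfotransferase, had 807.5, 458 and 557.1 at 48 h, against 2454.7, 1543.9 and 2554.5 at 24 h (-1.82 ± 0.40, adjusted p = 0.0112). Map3k6, a stress kinase, had 172.4, 119.4 and 152.4 at 48 h, against 525.2, 250.5 and 516.9 at 24 h (-1.39 ± 0.36, adjusted p = 0.0261). Both were separate by time, as a place among the 14 largest falls required, with 24 h replicate 2 again nearest to the 48 h arrays. The count of the list that fell was 2 without 24 h replicate 1, 9 without replicate 2 and 2 without replicate 3, 4, 3 and 4 without the 48 h replicates in turn, 4 with the Gapdh covariate and 2 with the actin covariate. Against HeJ mice in air the list's median difference was 0.08 at 48 h and 1.2 at 24 h. The air arrays belong to code series 3 and these to code series 13, so exposure and series cannot be told apart in that pair of values. Several members varied strongly among the HeJ mice at 6 h, where Zbtb16 read 102.4, 615.1 and 963.7.

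Of 15 measured genes of lipid storage and PPAR targets 4 fell, where 2.83% of all genes did. A negative difference was found in 14, and the median was -0.43. Pdk4 and Angptl4 are among the 4 and are counted in the glucocorticoid list too. Angptl4, an inhibitor of lipoprotein lipase, had 819.9, 1101 and 1024.8 at 48 h, against 2097.2, 1759.3 and 2223.5 at 24 h (-1.04 ± 0.27, adjusted p = 0.0254). Fabp4, a fatty acid carrier of endothelial cells, macrophages and fat, fell by 0.98 (adjusted p = 0.0389). Acaa2, an enzyme of mitochondrial fatty acid oxidation, fell by 0.44 on its brightest probe set (adjusted p = 0.0138), with its 3 probe sets between -0.84 and 0.07. Hilpda, a lipid droplet protein outside the list that inhibits triglyceride breakdown, had 1318.3, 1145.5 and 1419.7 at 48 h, against 3082.2, 3156.1 and 3625.6 at 24 h (-1.34 ± 0.20, adjusted p = 0.00131), a separation that 24 h replicate 2 shared, and it passed in 20 of 21 alternatives. Lpl, lipoprotein lipase, had 2615.5, 2467 and 2639.1 at 48 h, against 7701, 5003.6 and 7110.6 at 24 h (-1.33 ± 0.25, adjusted p = 0.00386). The list's count was 2 without 24 h replicate 1, 6 without replicate 2 and 1 without replicate 3, 2, 1 and 2 without the 48 h replicates in turn, and 1 with either the Gapdh or the actin covariate. Of 6 adipose markers 2 fell (Lpl and the triglyceride lipase Pnpla2), where 2.83% of all genes did. The 6 markers had a summed signal of 5937.2 to 6579.5 at 48 h, against 9440.1 to 12980.9 at 24 h. Adipoq, which defines adipocytes, read 138.7 to 194.7 at 48 h, against 190.7 to 213.1 at 24 h, below the filter's level of 218.3 in all 6 arrays. The part of adipose tissue in these falls was not tested.

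Of 28 measured endothelial markers 9 fell and 0 rose, where 2.83% of all genes fell, 24 had a negative difference, and the median was -0.30. The summed signal of the list was 80318.5 to 89982.5 at 48 h, against 104289.6 to 110155.1 at 24 h. Pecam1 (CD31), the junction protein of all endothelium, had 2668.9, 2459.4 and 2332.5 at 48 h, against 3727.3, 3732.7 and 3593.6 at 24 h (-0.57 ± 0.10, adjusted p = 0.00353). The 24 h arrays lay within a narrow range, replicate 2 included, and every 48 h array lay far below it. Ramp2, the subunit that makes the adrenomedullin receptor, fell by 0.54 (adjusted p = 0.00770), with 10909.6, 9903.9 and 11405.1 at 48 h, against 15445.4, 14676.8 and 16856.6 at 24 h. Egfl7, a matrix protein of vessels, fell by 0.59 (adjusted p = 0.0151). Lyve1, the hyaluronan receptor of lymphatic vessels, had 1789.6, 1323.7 and 2152 at 48 h, against 4540.8, 3160.8 and 5362.6 at 24 h (-1.30 ± 0.27, adjusted p = 0.00801), and also belongs to the glucocorticoid list. Cdh5, the endothelial cadherin, read 4074.9 to 4376.3 at 48 h, against 4567.7 to 5831 at 24 h. The count was 4 without 24 h replicate 1, 8 without replicate 2 and 1 without replicate 3, 8, 2 and 8 without the 48 h replicates in turn, 4 with the Gapdh covariate and 1 with the actin covariate. Pecam1 passed in 19 of 21 alternatives.

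Angpt1 had the lowest difference among genes that passed without overlap. It is the ligand that stabilizes vessels through the receptor Tie2, and it had 69.5, 29.1 and 9.1 at 48 h, against 245.4, 237.4 and 249.9 at 24 h (-2.50 ± 0.44, adjusted p = 0.00353). The 24 h arrays were nearly equal, and the 48 h signals were so low that both the size and the rank of the fall depend on the pseudocount. With a pseudocount of 64 Angpt1 differed by -1.67, against -1.75 for Lox and -1.74 for Sult1a1. In air Angpt1 read 42.3, 10.6 and 48.5, as low as at 48 h. Its 24 h arrays exceeded the filter's level of 218.3 and no 48 h or air array did. Angpt1 was thus kept through groups in which it is higher, and the filter on the mean signal dropped it. Prkch, protein kinase C eta, had 445.9, 338.9 and 254.8 at 48 h, against 1014.4, 620.8 and 1063.7 at 24 h (-1.33 ± 0.21, adjusted p = 0.00181). Igfbp3, a carrier of insulin-like growth factors, fell by 1.30 ± 0.24 (adjusted p = 0.00360), and C1qtnf1, a secreted C1q and TNF related protein, fell by 1.42 ± 0.30 (adjusted p = 0.00810).

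Of 25 cardiac muscle markers 2 fell, where 2.83% of all genes did, and 24 had a negative difference, with a median of -0.51. Their summed signal was 14595.3 to 17191.7 at 48 h, against 21766.7 to 25726.8 at 24 h. Actc1, the cardiac actin, had 1971.2, 2143.2 and 2167 at 48 h, against 4228.6, 3690.8 and 3834 at 24 h (-0.90 ± 0.24, adjusted p = 0.0332), and Tcap, a sarcomere protein, differed by -0.99 (adjusted p = 0.0404). Of the defining markers Myh6 read 763.9 to 1047.6 at 48 h, against 1087.5 to 1689.4 at 24 h, so none was near 0. In mice cardiac muscle surrounds the large pulmonary veins and so belongs to the lobe. The count was 3 without 24 h replicate 2 and 0 without any other single HeJ array or with the Gapdh or the actin covariate. Platelet and red cell markers gave 1 call in 8, where 5.46% of all genes were called. It was the platelet chemokine Ppbp (-1.06 ± 0.25, adjusted p = 0.0164). The summed signal of the 8 markers was 4757.3 to 5584.9 at 48 h, against 6106.2 to 9080.5 at 24 h. How much the cardiac or blood content of a lobe moves with the endothelial and lipid genes was not tested.

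Lox, the lysyl oxidase that cross-links collagen and elastin, had 2287.3, 1260.7 and 1613.8 at 48 h, against 6617.4, 4141.5 and 7086.4 at 24 h (-1.78 ± 0.42, adjusted p = 0.0187). Col4a1 of basement membranes fell by 0.38 (adjusted p = 0.0196), and these were the 2 calls among 28 collagens, elastin and matrix genes, a share near the 5.46% of all genes, with a list median of 0.01. Mt1, the zinc-binding metallothionein, had 2610, 2593.9 and 3294.5 at 48 h, against 5931.5, 5002.7 and 6541.5 at 24 h (-1.04 ± 0.19, adjusted p = 0.00360), and all the 24 h arrays lay above all the 48 h arrays. Its neighbour Mt2 did not pass (-0.51, adjusted p = 0.171). Of 17 immediate early genes 3 fell, where 2.83% of all genes did. Nr4a1, an orphan nuclear receptor, had 643.4, 534.9 and 556.7 at 48 h, against 1242.9, 1304.9 and 1243.6 at 24 h (-1.11 ± 0.25, adjusted p = 0.0131), and Klf2 and Jun fell by 0.58 (adjusted p = 0.0234) and 0.62 (adjusted p = 0.0415). That count was 0 without 24 h replicate 1 or 3, 6 without replicate 2 and 1, 0 and 3 without the 48 h replicates in turn, 1 with the Gapdh covariate and 0 with the actin covariate. Of 14 clock genes 2 fell, Cry2 by 0.90 (adjusted p = 0.00555) and Per1, and 6 had a positive difference. Their count was 1 or 2 with 1 HeJ array left out, 0 with the Gapdh and 1 with the actin covariate. Of 14 p53 targets 2 fell, Trp53inp1 by 1.14 (adjusted p = 0.0216) and Sesn2 by 0.85 (adjusted p = 0.0254), and 4 were positive. Over all genes 2.83% fell. The p53 count was 0 without 24 h replicate 1 or 3 or 48 h replicate 3 and with the Gapdh covariate, and 1 or 2 without the other arrays. The filter on the mean signal did not keep Sesn2.

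Several groups that ozone studies follow gave no call in this interval. Over all genes 5.46% were called, a share at which lists this short hold few calls or none. Of 17 genes of TLR4 and NF-kB signalling, 20 of the interferon response and MHC class I, 25 of the NRF2 antioxidant programme and 11 ribosomal proteins, 0 passed in either direction by limma, and their medians were 0.05, -0.01, 0.08 and 0.02. Tlr4 itself read 259.7, 227.6 and 182.8 at 48 h, against 299.4, 246.3 and 238.8 at 24 h, with overlap (-0.22 ± 0.17, adjusted p = 0.477). These are transcript levels and do not check the dominant negative allele. Neutrophil (8), B cell (9), T and NK cell (13), MHC class II (11), ciliated (7) and smooth muscle (17) markers had 0 calls as well. All 13 T and NK cell markers had a negative difference, with a median of -0.19. The neutrophil proteins S100a8 and S100a9 averaged 650.7 and 560.5 at 48 h, against 644.6 and 551.6 at 24 h.

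**Figure D3:**
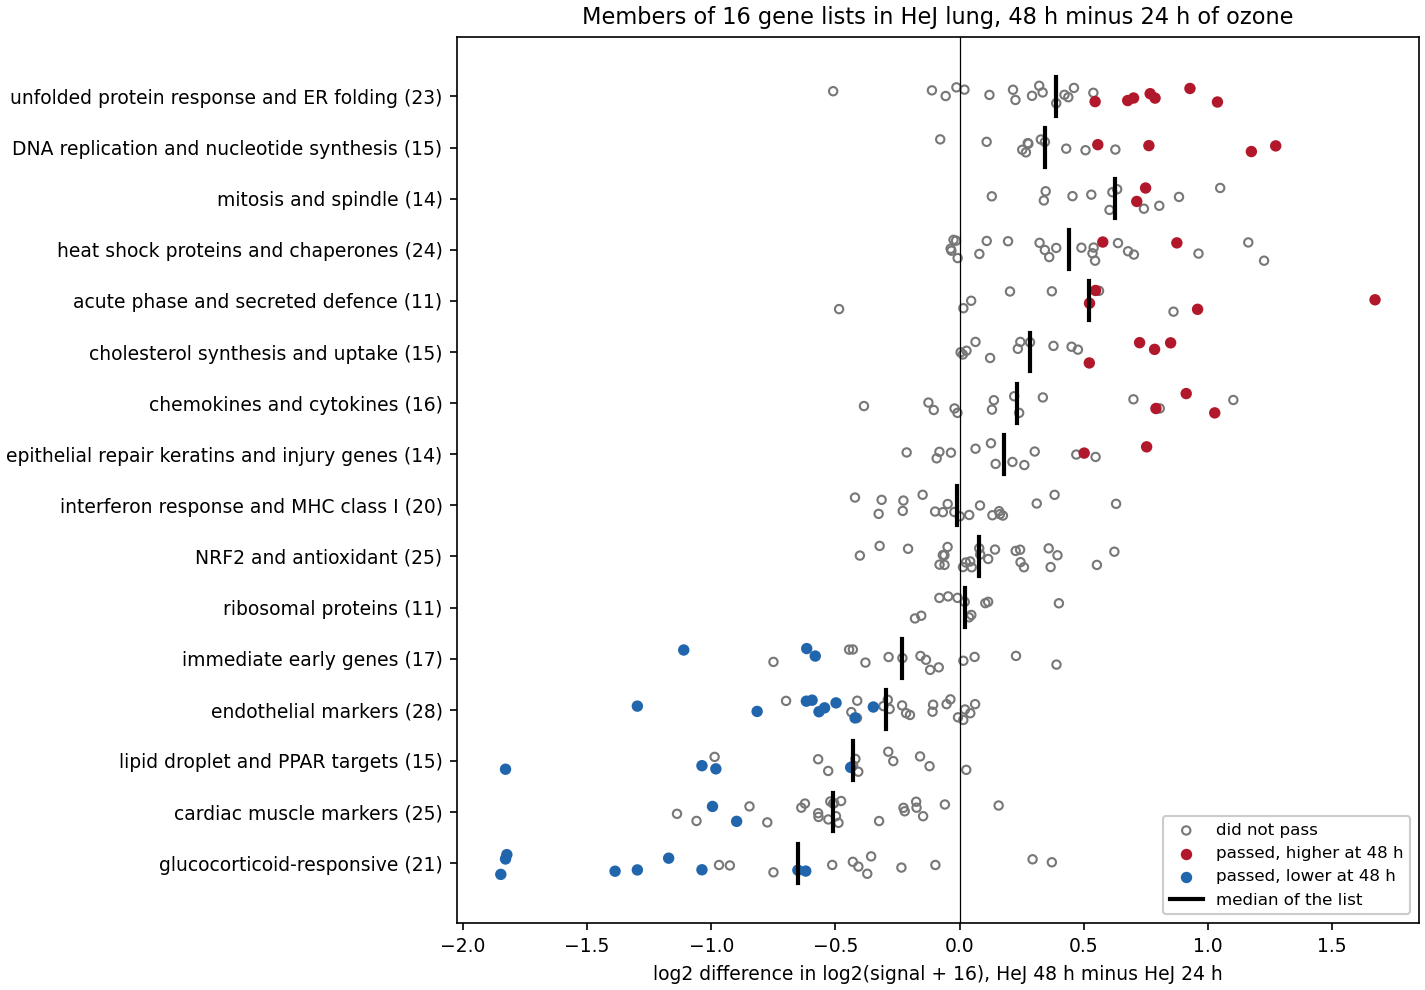
Difference in HeJ lung, 48 h minus 24 h of log2(signal + 16), for each measured member of 16 lists (number measured in brackets). Filled red points passed and were higher at 48 h, filled blue points passed and were lower, open points did not pass, and black bars are list medians, which run from 0.62 for mitosis to -0.65 for the glucocorticoid-responsive genes.

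Among the 14 largest rises and 14 largest falls, genes that stand in none of the lists include Pstk, Tubb6, Spred1, Slc1a3 and 1810021B22Rik. Pstk, the kinase of selenocysteine tRNA synthesis, had 290.7, 220 and 283.5 at 48 h, against 32.6, 96.3 and 39.6 at 24 h (2.05 ± 0.57, adjusted p = 0.0380), a rise between low signals. Tubb6, a beta-tubulin, had 616.5, 538 and 529.4 at 48 h, against 144.7, 323.1 and 249.8 at 24 h (1.24 ± 0.29, adjusted p = 0.0185). The groups were separate in both, as the rule for the 14 largest rises required. Every 48 h signal of Pstk exceeded the filter's level of 218.3 and no 24 h signal did. Pstk was thus kept through groups in which it is higher, and the filter on the mean signal dropped it. Spred1, an inhibitor of Ras and ERK signalling, rose by 1.21 ± 0.35 (adjusted p = 0.0440), and its 24 h arrays at 247, 471.6 and 862.4 were spread widely below 48 h arrays of 1093, 1026.7 and 1199.1. Slc1a3, a glutamate transporter that the filter on the mean signal did not keep, rose by 1.16 ± 0.25 (adjusted p = 0.0111). Hdc, the enzyme that makes histamine, rose by 1.08 ± 0.27 (adjusted p = 0.0218). Hdc belongs to the list of 4 mast cell, basophil and eosinophil markers, whose other call, the transcription factor Gata2, went the opposite way (-0.53, adjusted p = 0.0414). Fmo2, the flavin monooxygenase of lung and the other club cell marker that fell, had 1074.9, 577.4 and 1382.7 at 48 h, against 3198.3, 1468 and 4077.6 at 24 h (-1.48 ± 0.35, adjusted p = 0.0187), and 24 h replicate 2 lay just above the highest 48 h array. 1810021B22Rik, an unnamed transcript, differed by -1.76 ± 0.42 (adjusted p = 0.0184), and the filter on the mean signal did not keep it.

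The same interval in OuJ lungs gave 12 genes, 0.15% of those tested, all higher at 48 h. The test of the strain difference, HeJ minus OuJ, called 0 genes (0%; limma, 885 at an unadjusted p under 0.05, smallest adjusted p 0.0983), so none of the changes above is shown to be particular to HeJ. Without HeJ 24 h replicate 2 it called 16 genes, 10 with a positive and 6 with a negative difference. The genes called in both strains numbered 5, which is 1.14% of the HeJ calls and 41.7% of the OuJ calls. They were Ube2c, Prc1, Pttg1, Pclaf and Rrm2, all of the cell cycle. Of the 437 HeJ calls, 322 (73.7%) had the same sign in OuJ, against 56.1% of all genes. Their median OuJ difference was 0.08 for those higher in HeJ and -0.17 for those lower.

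The mitosis list had a median of 0.62 in HeJ, where 2 of 14 passed, and 1.37 in OuJ, where 6 of 14 passed. Over all genes 5.46% passed in HeJ and 0.15% in OuJ. With the filter on the mean signal the OuJ calls were 3, Pclaf, Pttg1 and Rrm2, while Ube2c, Prc1 and Mki67 were not kept. The mitosis values of both strains thus rest in part on members kept through arrays in which they are brighter. The replication list had medians of 0.34 in HeJ and 0.39 in OuJ. Ube2c differed by 0.75 in HeJ and by 1.78 in OuJ (strain difference -1.03, adjusted p = 0.169). The glucocorticoid list had medians of -0.65 in HeJ and -0.11 in OuJ. Tsc22d3 differed by -1.17 in HeJ, and in OuJ it read 5208.5, 4837.8 and 5021.7 at 48 h, against 4286, 4394 and 5269.4 at 24 h (0.12, strain difference -1.29, adjusted p = 0.232). The OuJ arrays of Tsc22d3 at 48 h thus lay above all 6 HeJ arrays. Saa3 read 831, 1254.1 and 786.1 at 48 h in OuJ, against 934, 831.9 and 1155.7 at 24 h, with overlap, and its strain difference of 1.72 had an adjusted p of 0.146. The ER list had medians of 0.39 in HeJ and 0.17 in OuJ, and Manf had a strain difference of 0.86 (adjusted p = 0.226). HeJ arrays carry codes of series 13 and OuJ arrays of series 10, so levels of the strains cannot be told apart from the series, while each difference is taken within a series.

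The genes of smallest p in the strain difference were Dcpp3 (-1.31), Cyp7b1 (1.58), Slc1a3 (1.77) and Ntn1 (0.72), with adjusted p between 0.0983 and 0.107. Cyp7b1 in OuJ read 208.2, 231.7 and 189.1 at 48 h, against 277.9, 275.5 and 339.9 at 24 h, so its arrays ran opposite ways in the strains. Ntn1, the guidance protein netrin-1, had 1303.1, 1314.8 and 1474.7 at 48 h in HeJ, against 878.8, 1004 and 926.6 at 24 h (0.53 ± 0.10, adjusted p = 0.00360). After these came Naf1, an assembly factor of telomerase and snoRNA particles (1.10, adjusted p = 0.120), Clec1b, the platelet receptor CLEC-2 (-1.44, adjusted p = 0.131), Elmo1, a Rac activator (-0.92, adjusted p = 0.136) and Dhx8, a splicing helicase (-0.80, adjusted p = 0.146).

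**Figure D4:**
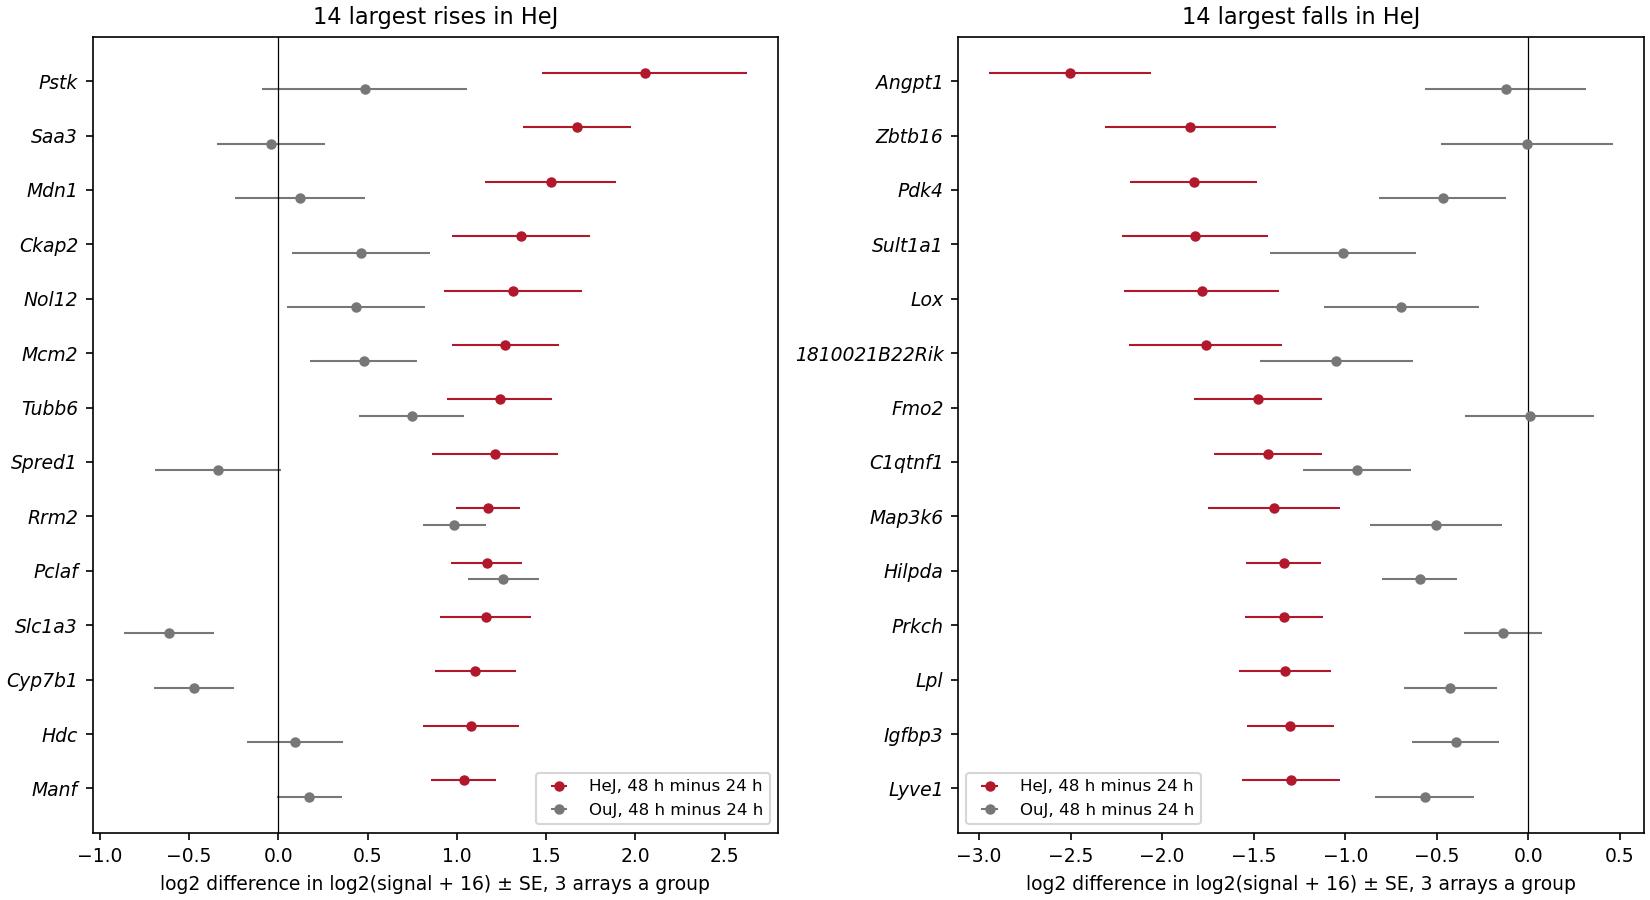
Differences of log2(signal + 16), 48 h minus 24 h, for the 14 largest rises (left) and the 14 largest falls (right) in HeJ, with HeJ in red above OuJ in grey. Bars are the SE of the fit over all 24 arrays, the same for a gene in both strains. The genes were chosen for their HeJ values; Rrm2 and Pclaf show about the same difference in both strains, and Slc1a3 and Cyp7b1 have opposite signs.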

How the data were processed

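RNA of 24 individual left lung lobes was extracted with TRIZOL and RNeasy, and 7.5 µg of each was labelled as biotin cRNA, per the labels' protocols. The deposited values are linear signal intensity that the authors computed in GCOS 1.4 (named in the submitters' processing notes), scaled to 1 common trimmed mean. They were taken as log2(signal + 16). A probe set was kept if 3 or more of the 24 arrays exceeded 218.3, the overall median signal, and the brightest stood for each of 8008 genes. A group-mean model over all 24 arrays, with an intensity trend, came from limma 3.58.1 (R 4.3.3, package data.table, version 1.17.8), and was checked on simulated data. P-values were adjusted by Benjamini-Hochberg over all genes, and adjusted p under 0.05 passed. The number of arrays limits the precision. SEs rest on the spread between mice pooled over the 8 groups of the series and moderated along the intensity trend. A gene therefore has the same SE in both strains, and it is not the spread of only the mice compared. The members of the comparison, its 40 gene lists and the rule for named genes (the 14 largest separate changes each way, up to 4 members per list by p, and fixed genes) were chosen with earlier results of these data known. Raw images were not used here.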

Additional observations from a re-analysis of the deposited data

How the results depend on the processing

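The number of genes passing in HeJ at 48 h against 24 h, 437, was 753 with all probe sets tested, 201 with the 6 arrays fitted alone, 86 with the Gapdh ratio and 49 with the actin ratio as a covariate, which was chosen after seeing the data. It was 103 to 649 with 1 array left out. Without the arrays whose codes carry a suffix it was 1 (Zdhhc8, named after its values were seen), since the fit then rests on HeJ 24 h replicate 2 alone at 24 h and assumes that it varies like the other groups. The other alternatives (array weights, no trend, quantile or median scaling, averaged probe sets, both other filters, pseudocounts of 64 and 1) gave 332 to 527. All 437 genes kept their sign in each alternative that measured them, apart from the mean of probe sets, where 433 did, and all probe sets, which was not counted. For 430 of the 437 the groups did not overlap. Their sign could not change when arrays were left out or the pseudocount changed, so the kept signs under those alternatives add no support. The OuJ count of 12 was 21 with median centring, 3 with a filter on the mean, 19 without a trend, 6 with only the groups compared, 27 with array weights and 6 to 22 with 1 OuJ array left out. The strain difference, 0 genes, gave 2 with a pseudocount of 64 (Cyp7b1 and Dcpp3), 3 without a trend (these and Slc1a3), 6 with only the groups compared, 1 without the suffixed arrays (Zdhhc8) and 0 to 16 with 1 array left out. With fewer arrays or genes a count can move for that reason; the cause of the other shifts was not tested. Named genes gave 1915 unchanged calls, 551 lost, 15 gained and 0 reversed over their alternatives. A gene whose groups do not overlap cannot reverse when arrays are left out or the pseudocount changes. The fit with the replicate block gave 475 genes in HeJ (223 higher, 252 lower), 14 in OuJ and 0 for the strain difference. Same-numbered HeJ arrays correlated in their deviations at 0.022, 0.097 and 0.061. Replicates 2 and 3 at 48 h correlated best with the same number at 24 h, and replicate 1 with replicate 3 (0.052). Values this small cannot tell whether such arrays share more than a number. Signals near the filter's level, as in Mcm2, Ckap2, Pstk and Angpt1, limit those fold changes most. The filter on the mean signal did not keep Pstk, Mdn1, Ckap2, Slc1a3, Cyp7b1, Angpt1, 1810021B22Rik, Mcm5, Cyp51 and Sesn2, nor Ube2c and Prc1. These named genes were tested through the arrays in which they are brighter.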

Other observations

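Outside the lists, the gene of smallest p was Acot7, an acyl-CoA thioesterase, chosen like all genes here after its values were seen. It had 1907.2, 2004.4 and 1998.2 at 48 h, against 1224.6, 1240.3 and 1048.4 at 24 h (0.75 ± 0.10, limma adjusted p = 0.000713). Ckap4, a sheet-shaping protein of the rough ER, had 2356.6, 2460.4 and 2992.4 at 48 h, against 1284.2, 1380.6 and 1414.8 at 24 h (0.92 ± 0.14, adjusted p = 0.00119). Gja1, the gap junction protein connexin 43, had 3346.3, 3663.1 and 4124 at 48 h, against 1426.7, 2610.6 and 1640.4 at 24 h (1.01 ± 0.18, adjusted p = 0.00353). All 3 genes were separate by time. They are among the 58 genes that passed with each HeJ array left out and with the Gapdh covariate. That adds no support, since they were chosen with such values known. Single genes with a role in making ribosomes or small nucleolar RNA particles went both ways, and no list of them was counted. Gar1 rose by 0.72 (adjusted p = 0.00353), Naf1 by 0.89 (adjusted p = 0.00353), Mdn1 by 1.53 (adjusted p = 0.0195) and Nol12 by 1.31 (adjusted p = 0.0479), the last with a 24 h replicate 1 of 61.5 against 399.6 and 303.3 in the others, while Nop53 fell by 0.56 (adjusted p = 0.00353). The filter on the mean signal did not keep Mdn1.

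Among the falls, Nox4, an NADPH oxidase, had 231.7, 179.4 and 210.6 at 48 h, against 476.8, 305.8 and 717.6 at 24 h (-1.14 ± 0.20, adjusted p = 0.00339). Hpgd, which inactivates prostaglandins, had 2813.4, 2703.9 and 3386.9 at 48 h, against 6523.8, 5167.5 and 6364.8 at 24 h (-1.02 ± 0.18, adjusted p = 0.00353), and differed by -0.78 in OuJ (adjusted p = 0.0851). Cirbp, an RNA-binding protein induced by cooling, had 215.4, 304.4 and 324.9 at 48 h, against 660, 451.9 and 679.5 at 24 h (-1.04 ± 0.19, adjusted p = 0.00370). Its HeJ air arrays, of another code series, read 893.6, 1042.1 and 988.1. Zdhhc8, a palmitoyltransferase, read 4590.1 in HeJ 24 h replicate 2, against 1611.7 and 1488.4 in the other 24 h arrays and 1521.6 to 1561.5 at 48 h.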
